A study of Mus musculus with 19 samples.

Results

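The genes described here are the writers, the maintenance factor and the erasers of DNA methylation, 8 genes chosen by symbol from the 23420 genes counted in every library: Dnmt1, Dnmt3a, Dnmt3b, Dnmt3l, Uhrf1, Tet1, Tet2 and Tet3. They were followed through 19 RNA-seq libraries of mouse pluripotent cells from a study that asked why some inbred strains do not yield embryonic stem cell (ESC)-like lines. There were 14 libraries of induced pluripotent stem cells (iPSC), 3 of ESC and 2 of epiblast stem cells (EpiSC), the primed cells of the embryo after implantation. The ESC were male, 1 line each of NOD/ShiLtJ, WSB/EiJ and 129S1/SvImJ, grown in serum and LIF with inhibitors of GSK3B and MEK. The EpiSC were male as well, 1 line of NOD/ShiLtJ and 1 of a 129/Sv background. The iPSC came from fibroblasts of pooled littermates through a lentivirus carrying Oct4, Klf4, Sox2 and Myc that was not excised, so every iPSC library also carries these transgenes. They comprised 2 male and 2 female clones of each strain. The NOD/ShiLtJ and WSB/EiJ iPSC grew in 2iS, which is serum and LIF with both inhibitors, and the 129S1/SvImJ iPSC in serum and LIF alone (ESC/LIF). The 129S1/SvImJ male clones 1 and 17 were sequenced again after transfer to 2iS at a later passage, so medium and passage cannot be told apart for them.

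Methyl groups on cytosine are placed mostly at CG dinucleotides (CpG). Dnmt3a and Dnmt3b are the de novo methyltransferases, and Dnmt3l, which has no catalytic activity of its own, binds them and stimulates them. Dnmt1 copies the pattern onto the new strand after replication, guided by Uhrf1, which recognises hemimethylated CpG. The dioxygenases Tet1, Tet2 and Tet3 oxidise methylcytosine and so start its removal. Naive ESC in medium with both inhibitors are known for low methylation of their genome, and primed cells for high methylation. No methylation was measured in these samples, only RNA.

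The promoters of the members differ widely in how many CpG they hold, as RefSeq gives them for GRCm38.p6. Of 32851 promoters, the 250 bases before the start held a median of 6 CpG. The 3 sequences printed here, with each CG in capitals, belong to the genes with the largest differences between cell states in these data, Dnmt3l and Tet2, and to Dnmt3b, which differed in the other direction. None overlaps an annotated exon. The window before the second listed start of Dnmt3l (chr10:78049592-78049841, plus strand) has 4 CpG.
Dnmt3l: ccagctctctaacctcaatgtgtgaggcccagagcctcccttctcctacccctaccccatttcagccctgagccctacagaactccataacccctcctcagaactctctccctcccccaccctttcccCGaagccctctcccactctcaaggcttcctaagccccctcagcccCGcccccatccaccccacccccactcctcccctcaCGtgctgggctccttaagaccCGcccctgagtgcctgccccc
The Tet2 window (chr3:133544391-133544640, minus strand) has 51, more than 99.9% of all promoters.
Tet2: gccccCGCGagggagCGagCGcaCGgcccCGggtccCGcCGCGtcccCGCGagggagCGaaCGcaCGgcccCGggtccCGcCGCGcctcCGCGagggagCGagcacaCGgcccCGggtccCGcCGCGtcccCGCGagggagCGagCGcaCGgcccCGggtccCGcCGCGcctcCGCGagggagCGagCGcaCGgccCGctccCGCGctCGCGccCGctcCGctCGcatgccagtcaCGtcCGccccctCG
The Dnmt3b window (chr2:153649199-153649448, plus strand) has 21, more than 83.7% of them.
Dnmt3b: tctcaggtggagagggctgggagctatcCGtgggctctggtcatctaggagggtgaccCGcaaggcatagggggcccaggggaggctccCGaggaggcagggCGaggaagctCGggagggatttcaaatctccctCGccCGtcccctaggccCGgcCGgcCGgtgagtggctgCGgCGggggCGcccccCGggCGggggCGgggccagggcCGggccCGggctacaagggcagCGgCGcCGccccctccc
On either strand, the letters CCACCC, a motif of Klf factors, occur in the Dnmt3l window and in neither of the other 2. They occur in 28.1% of all promoters. Of the windows at the other listed starts of Dnmt3l, the first, which overlaps exons, lacks them and the third holds them. The letters AAGGTCA, a motif of Esrrb, are in 4.08% of promoters and in none of the 3 windows.

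The deposited values were raw counts of read pairs per gene. Between 92996 and 567432 pairs per library fell on genes, a median of 1.47% of the uniquely aligned pairs in 17 libraries and 5.59% to 5.62% in the 2 libraries of NOD/ShiLtJ male iPSC, which were kept out of the cell state comparisons. Levels are in CPM, the counts each library would hold at 1000000 gene read pairs, after TMM normalization. The limit that a count of 0 allows, 3 counts, ran from 5.29 to 32.3 CPM over the libraries, without TMM. The library kit keeps strand. Of the 100 genes with most counts, 89.8% in the 17 libraries have exons opposite another gene's exons, 38.8% in the 2 NOD/ShiLtJ male libraries, against 24.6% of all matched genes. The strand setting of the counting is not given in the sources used here. If it did not match the kit, a count would hold reads from the strand opposite to the gene, for any gene, and this was not tested. In the 3 male ESC, 593 to 610 pairs were counted on Xist and 25 to 66 on Tsix, its antisense partner. Among the members, Dnmt3a (133 bases of exon, opposite Dnmt3aos), Dnmt3l (67, Aire) and Tet2 (43, Gm42567) have such overlaps, and reads of these pairs may not be told apart. The intervals given cover counting error only. GEO's titles and source names assign different conditions to all 19 libraries, and the titles were used. Under the titles, the summed level of 15 naive markers was 36 to 70 CPM in EpiSC, 1380 to 1930 in ESC and 1720 to 2650 in the 12 iPSC, and 9 of the 15 had no count in EpiSC. The primed markers summed to 262 to 931 CPM in EpiSC, 111 to 380 in ESC and 7.27 to 155 in the 12 iPSC, so EpiSC and ESC overlapped on them. Fibroblast markers, which can come from feeder cells, summed to 2070 to 3060 CPM in ESC, 388 to 1010 in the 12 iPSC and 267 to 1250 in EpiSC. Without Fn1 the sums were 1040 to 1850 CPM in ESC, 14.3 to 148 in the 12 iPSC and 206 to 679 in EpiSC. Their part in the results on ESC was not tested.

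The first question was how the members differ between the naive-like iPSC, ESC and the primed EpiSC. In 12 iPSC, from 10 clones because 129S1/SvImJ male clones 1 and 17 enter in both media, against 2 EpiSC, Dnmt3l, Tet2 and Tet1 rose, and Dnmt3a and Dnmt3b fell, while Dnmt1 and Uhrf1 did not pass the test. That is 5 of the 7 members that passed the filter on low counts, where 28.3% of 3986 tested genes passed. The 3 that rose stand beside 448 of the 3986 tested genes (11.2%), and the 2 that fell beside 681 of the 3986, a larger share. Tet3 was too low for the filter. A gene was called at a Benjamini-Hochberg adjusted p under 0.05 in edgeR's quasi-likelihood test. The iPSC and ESC included strains, and the iPSC also females, that the EpiSC lacked, and the states differ in medium. The ESC and EpiSC lines came from other laboratories, while the iPSC were made in the study. The passage in the titles was lowest in ESC. None of these can be told apart from cell state in full. In these bulk samples, fewer cells of a type and less RNA per cell cannot be told apart either.

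Among the de novo group, Dnmt3l (chromosome 10, 78041947 to 78063622, GENCODE M21 on GRCm38) had the largest difference. It had 0 counts in NOD/ShiLtJ EpiSC and 1 count in 129 EpiSC (7 CPM). The 3 ESC had 179 CPM in NOD/ShiLtJ, 121 in WSB/EiJ and 68 in 129S1/SvImJ. The 12 iPSC ran from 25.1 through a median of 125 to 221 CPM. Every iPSC and ESC library was thus above both EpiSC. The log2 fold change was 5.08 (SE 0.94, adjusted p = 0.000409) for iPSC against EpiSC. For ESC against EpiSC it was 5.01 (SE 1.03, adjusted p = 0.00255). Because EpiSC held a single count, these fitted values depend on the fit's small added count. The counts themselves, 241 in iPSC and 1 in EpiSC, give a ratio of 47 per normalised library size with a 95% exact interval from 8.35 to 1860. For ESC the ratio was 39.3 (6.71 to 1580).

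Dnmt3b (chromosome 2, 153649450 to 153687730) was at 237 CPM in NOD/ShiLtJ EpiSC and 189 in 129 EpiSC. The ESC had 85.1 CPM in NOD/ShiLtJ, 181 in WSB/EiJ and 43.3 in 129S1/SvImJ. The iPSC ranged from 29.7 to 170 CPM with a median of 94.2. Both EpiSC lay above the 15 other libraries of the cell state comparisons, by 189 against 181 CPM at the nearest. Of the NOD/ShiLtJ male iPSC, kept out of these comparisons, clone 3 had 219 CPM, above the 129 EpiSC, and clone 35 had 109. In iPSC against EpiSC Dnmt3b fell by 1.2 on the log2 scale (SE 0.4, adjusted p = 0.0283). The call was lost without the NOD/ShiLtJ EpiSC (log2 fold change -1.07, adjusted p = 0.196), without the 129 EpiSC (-1.31, 0.103), with DESeq2 (-1.24, 0.0571), among males alone (-0.9, 0.117), with 1 library per clone (-1.1, 0.0601) and with uniquely aligned pairs as library size (-0.69, 0.188). In ESC against EpiSC the log2 fold change was -1.07 (SE 0.52, adjusted p = 0.174), which did not pass.

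The difference in Dnmt3a (chromosome 12, 3806007 to 3914443) rested mostly on 1 library. Its level was 170 CPM in NOD/ShiLtJ EpiSC and 63 in 129 EpiSC. In ESC it was 34 CPM in NOD/ShiLtJ, 130 in WSB/EiJ and 18.5 in 129S1/SvImJ, on 4, 15 and 3 counts. The iPSC had 8.38 to 81.6 CPM with a median of 30, and the 129 EpiSC fell within their range. Dnmt3a fell by 1.68 in iPSC against EpiSC (SE 0.55, adjusted p = 0.0257). Without the NOD/ShiLtJ EpiSC the log2 fold change was -0.83 (adjusted p = 0.54). DESeq2 gave an adjusted p of 0.086, and library size by uniquely aligned pairs 0.0949. For ESC against EpiSC the value was -1 (SE 0.7, adjusted p = 0.364).

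The maintenance pair differed less. Dnmt1 (chromosome 9, 20907209 to 20959888) had 221 and 133 CPM in NOD/ShiLtJ and 129 EpiSC, 196 to 297 CPM in the 3 ESC, and 158 to 305 in the 12 iPSC (median 281). The groups overlapped. The log2 fold change of iPSC against EpiSC was 0.51 (SE 0.26, adjusted p = 0.151), and only the scaling to uniquely aligned pairs carried it past the threshold among the alternatives run (1.01, adjusted p = 0.0184). Uhrf1 (chromosome 17, 56303321 to 56323486) had 159 CPM in NOD/ShiLtJ EpiSC and 70 in 129 EpiSC. It had 121 to 260 CPM in ESC and 59.3 to 247 in iPSC with a median of 194. These groups overlapped too, with a log2 fold change of 0.53 (SE 0.43, adjusted p = 0.371). Against EpiSC, the ESC differed by 0.47 for Dnmt1 (SE 0.31, adjusted p = 0.325) and 0.72 for Uhrf1 (SE 0.5, adjusted p = 0.361).

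**Figure D1:**
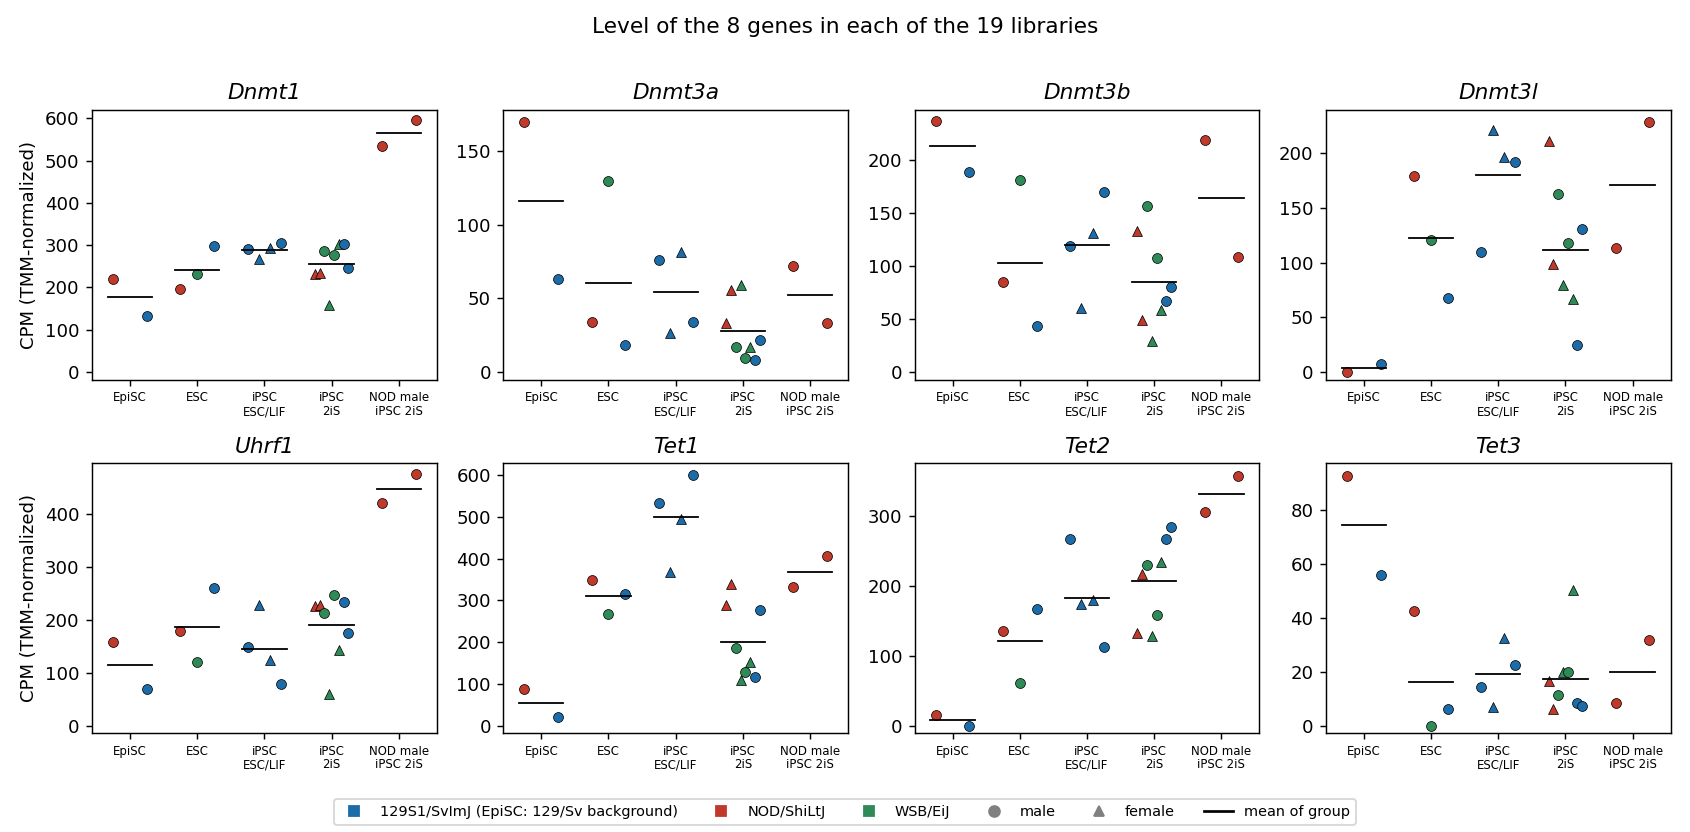
Level of each gene in CPM (vertical axis, linear) in all 19 libraries by cell state and medium. Points are libraries (colour for strain, shape for sex) and lines are group means. Dnmt3l and Tet2 lie at 0 to 15.4 CPM in both EpiSC and at 25.1 CPM or more in every other library.

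Among the erasers, Tet2 (chromosome 3, 133463679 to 133545139) was nearly absent from EpiSC. It had 3 counts in NOD/ShiLtJ EpiSC (15.4 CPM) and 0 in 129 EpiSC. The ESC had 136 CPM in NOD/ShiLtJ, 60.5 in WSB/EiJ and 167 in 129S1/SvImJ. The iPSC ranged from 113 to 284 CPM with a median of 198. Both EpiSC were below every other library. The log2 fold change was 4.33 for iPSC (SE 0.64, adjusted p = 3.75e-05) and 3.73 for ESC (SE 0.71, adjusted p = 0.00141). With 353 counts in iPSC, 50 in ESC and 3 in EpiSC, the ratios per normalised library size were 22.9 (95% exact interval 7.79 to 112) and 14.2 (4.6 to 71.3).

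Tet1 (chromosome 10, 62804570 to 62908996) was detected in EpiSC at 87.4 CPM in NOD/ShiLtJ and 21 CPM in 129, the latter on 3 counts. The ESC had 349 CPM in NOD/ShiLtJ, 268 in WSB/EiJ and 315 in 129S1/SvImJ. The iPSC spread from 109 to 599 CPM around a median of 282, and none overlapped EpiSC. Tet1 rose by 2.32 in iPSC (SE 0.64, adjusted p = 0.00981) and by 2.47 in ESC (SE 0.71, adjusted p = 0.0221). Without the 129 EpiSC neither passed, with 1.74 (adjusted p = 0.152) and 1.87 (adjusted p = 0.208).

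Tet3 (chromosome 6, 83362373 to 83459084) ran the other way on few counts. It had 18 counts in NOD/ShiLtJ EpiSC (92.6 CPM) and 8 in 129 EpiSC (56 CPM). In ESC there were 5 counts in NOD/ShiLtJ (42.6 CPM), 0 in WSB/EiJ and 1 in 129S1/SvImJ (6.18 CPM). The 12 iPSC had 1 to 6 counts each, at most 50.3 CPM. All ESC and iPSC were below both EpiSC. The ratio of iPSC to EpiSC per normalised library size was 0.225 (95% exact interval 0.129 to 0.396). With no filter on low counts the log2 fold change was -2.04 (adjusted p = 0.00489), and DESeq2 gave -2.19 (adjusted p = 0.0326). Without the 129 EpiSC, Tet3 passed the filter but not the test (-2.37, adjusted p = 0.063). For ESC the counts, 6 against 26, gave a ratio of 0.197 (0.0663 to 0.49), and neither alternative passed (adjusted p = 0.108 with no filter, 0.165 with DESeq2).

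In ESC against EpiSC, then, 3 of 7 members passed and each rose, beside 15.1% of tested genes in either direction and 6.85% higher. Both comparisons share the EpiSC. Within a strain EpiSC were again lowest for Tet2. In NOD/ShiLtJ it was at 15.4 CPM in EpiSC, 136 in ESC, and 133 and 217 in the female iPSC. In 129, it was at 0 in EpiSC, 167 in ESC and 113 to 267 in the 4 iPSC in ESC/LIF. In the alternatives run, the calls of Dnmt3l and Tet2 were lost only under the conditions that the source names give (log2 fold changes of 2.1 and 1.56 for iPSC, adjusted p = 0.34 and 0.368), under which no member passed. Neither gene was in the fit without opposite-strand exons.

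Between iPSC and ESC, 0 of 7 members passed, beside 6.22% of tested genes, and 0 had an unadjusted p under 0.05 in edgeR or a call in DESeq2. The largest differences were in Dnmt3a, at -0.68 (SE 0.57, adjusted p = 0.558), and Tet2, at 0.6 (SE 0.34, adjusted p = 0.353). The standard errors, from 0.21 for Dnmt1 to 0.57 for Dnmt3a, leave room for moderate differences.

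**Figure D2:**
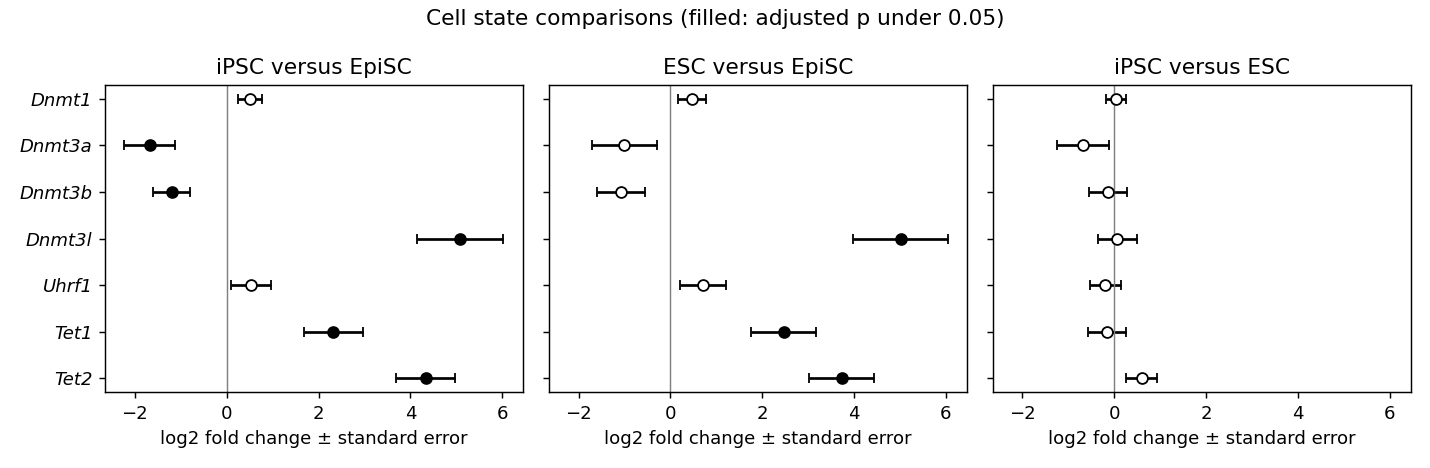
Log2 fold change (horizontal axis) with its standard error for 7 genes in the 3 comparisons of cell state. Filled points passed an adjusted p of 0.05. Dnmt3l is at 5.08 and 5.01 against EpiSC and at 0.07 between iPSC and ESC.

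The balance within each family was read from shares of counts. Summed over the 12 iPSC, 483 counts fell on the Dnmt3 genes, of which Dnmt3l took 49.9% (95% exact interval 45.3% to 54.4%), Dnmt3b 35.8% (31.5% to 40.3%) and Dnmt3a 14.3% (11.3% to 17.7%). In EpiSC, Dnmt3b took 62.9% of 116 counts (53.5% to 71.7%), Dnmt3a 36.2% (27.5% to 45.6%) and Dnmt3l 0.862% (0.0218% to 4.71%). Library by library, Dnmt3l led the Dnmt3 counts in 10 of the 12 iPSC and Dnmt3b in both EpiSC. The other 2 iPSC were 129S1/SvImJ male clone 1 in 2iS (Dnmt3b 66.7%, Dnmt3l 25%, of 12 counts) and in ESC/LIF (39.1% and 35.9%), and in WSB/EiJ male clone 12 they were near equal (46.7% and 48.3%). Of the Tet counts in iPSC, Tet1 took 58.7% (55.5% to 61.9%), Tet2 38% (34.9% to 41.3%) and Tet3 3.23% (2.19% to 4.58%) of 928. This pooled order was not that of every library, since Tet1 was above Tet2 in 6 of the 12 and below it in the other 6. Tet1 led in all 4 libraries in ESC/LIF and both NOD/ShiLtJ females, and Tet2 led in all 4 of WSB/EiJ and both 129S1/SvImJ males in 2iS. In EpiSC, Tet3 took 53.1% (38.3% to 67.5%) of 49 counts. Per library, the share of Tet3 was 47.4% and 72.7% in the EpiSC and at most 11.5% in any of the 12 iPSC. In ESC, Dnmt3l took 43.4% of 106 Dnmt3 counts and Tet1 68.7% of 179 Tet counts. Tet1 led in all 3 ESC, and Dnmt3l in 2 of them, while in the WSB/EiJ ESC Dnmt3b took 42%, Dnmt3a 30% and Dnmt3l 28%.

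**Figure D3:**
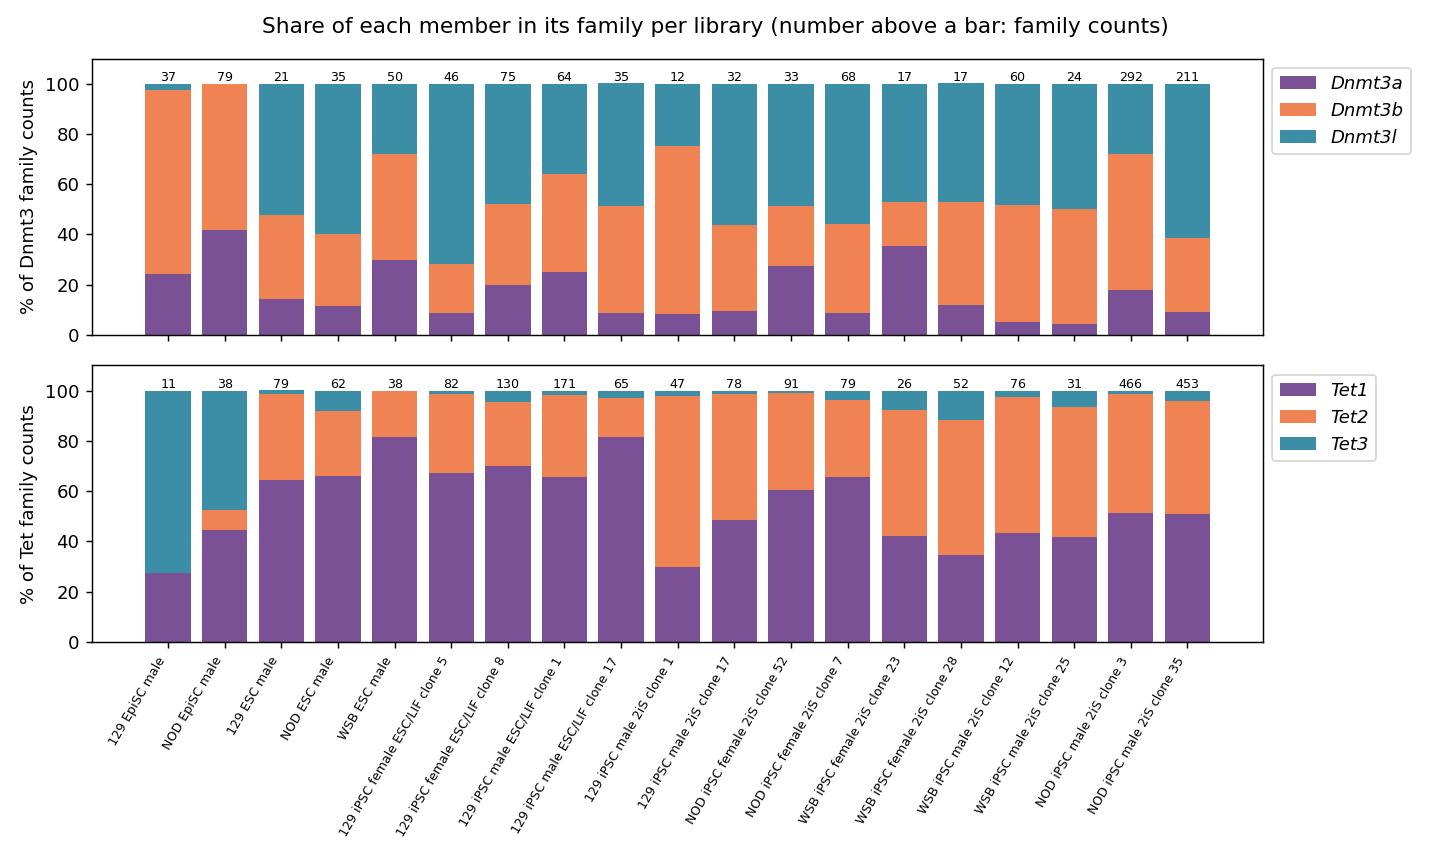
Share of each gene in the counts of its family (vertical axis, percent) for every library, with the family's counts above each bar. Tet3 fills 47.4% and 72.7% of the Tet counts in the EpiSC, and Dnmt3l 0% and 2.7% of their Dnmt3 counts.

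Scaled to the length of their exons, as CPM per kilobase, the members in the 12 iPSC stood in the order Dnmt3l (44.9 ± 20.9, SD), Uhrf1 (41.2 ± 15.1), Dnmt1 (36.1 ± 5.78), Tet1 (19.4 ± 11.1), Dnmt3b (19 ± 8.9), Tet2 (11.8 ± 3.51), Dnmt3a (2.21 ± 1.53) and Tet3 (1.08 ± 0.771). These means pool both media, and the order differed between them. In the 8 libraries in 2iS, Uhrf1 came first (44.8 ± 14.9), before Dnmt3l (37.4 ± 19.4) and Dnmt1 (34.6 ± 6.5), and Dnmt3b (16.7 ± 8.57) came before Tet1 (12.9 ± 5.8). In the 4 in ESC/LIF, Dnmt3l came first (60.1 ± 16.2), before Dnmt1 (39.2 ± 2.12), Uhrf1 (34 ± 14.6), Tet1 (32.3 ± 6.29) and Dnmt3b (23.5 ± 8.86). In 2iS the first 3 differed from each other by less than the larger SD of the pair, as did Dnmt3b and Tet1, and Dnmt1 and Dnmt3b did not. In ESC/LIF this held of each neighbouring pair from Dnmt1 through Uhrf1 and Tet1 to Dnmt3b, and not of Dnmt3l against Dnmt1. Dnmt3a and Tet3 were lowest in both media. In EpiSC the mean per-length level was highest for Dnmt3b, at 37 and 46.3 in the 2 lines. Uhrf1 followed at 16.4 and 37.4 and Dnmt1 at 18 and 30, so Uhrf1 overlapped both of the others.

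The next comparison asked what 2iS does to 129S1/SvImJ male iPSC that were derived in ESC/LIF. Of the 7 members tested, Tet1 alone passed, and it fell, beside 4.1% of 3388 tested genes in either direction and 2.77% lower. In clone 1, Tet1 went from 534 CPM in ESC/LIF (112 counts) to 117 in 2iS (14 counts). In clone 17 it went from 599 CPM (53 counts) to 276 (38 counts). Both clones were lower in 2iS, clone 1 by more. The log2 fold change was -1.4 (SE 0.31, adjusted p = 0.00567). With the clone as a block it was -1.48 among these 4 libraries (adjusted p = 0.0158). DESeq2 missed the threshold (adjusted p = 0.0555), and without clone 1 in 2iS the value was -0.94 (adjusted p = 0.274).

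The female clones, in ESC/LIF only, had 368 and 495 CPM of Tet1. The 4 libraries in ESC/LIF, at 368 to 599 CPM, thus all lay above the 8 iPSC in 2iS other than NOD/ShiLtJ males, at 109 to 340 CPM. This order was seen after the values were known and was not tested. Outside the 129S1/SvImJ males, medium and strain cannot be told apart in it. The NOD/ShiLtJ male iPSC, also in 2iS but not among the 8, had 331 CPM in clone 3 and 405 in clone 35. Clone 35 thus fell within the range of ESC/LIF. The 3 ESC, whose medium also held the inhibitors, had 268 to 349 CPM.

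The other members did not pass between media. Dnmt3a went from 76.3 to 8.38 CPM in clone 1 (16 counts and 1) and from 33.9 to 21.8 in clone 17 (3 counts each), with a log2 fold change of -1.82 (SE 0.86, adjusted p = 0.328). Dnmt3b went from 119 to 67.1 CPM in clone 1 and from 170 to 80 in clone 17 (-0.8, SE 0.48, adjusted p = 0.489). Dnmt3l went from 110 to 25.1 and from 192 to 131 CPM (-0.69, SE 0.5, adjusted p = 0.604). In clone 17, Dnmt3l had 17 counts in ESC/LIF and 18 in 2iS. Each of these 3 genes had a lower CPM in 2iS in both clones, without a call. How many of all tested genes were lower in both clones was not counted. Uhrf1 was higher in both, from 148 to 235 and from 79.1 to 175 CPM (0.81, SE 0.4, adjusted p = 0.339). Dnmt1 stayed between 247 and 305 CPM in all 4 libraries, with a log2 fold change of -0.02 (SE 0.3, adjusted p = 0.988). Tet2 was at 267 and 268 CPM in clone 1 and went from 113 to 284 in clone 17 (0.5, SE 0.35, adjusted p = 0.586). Tet3 had at most 3 counts in each of these libraries. Of 11 naive markers tested between media, Klf4 (1.37, SE 0.35, adjusted p = 0.0157), Tbx3 (1.34, SE 0.39, adjusted p = 0.0394) and Tfcp2l1 (1.56, SE 0.36, adjusted p = 0.00781) rose in 2iS.

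**Figure D4:**
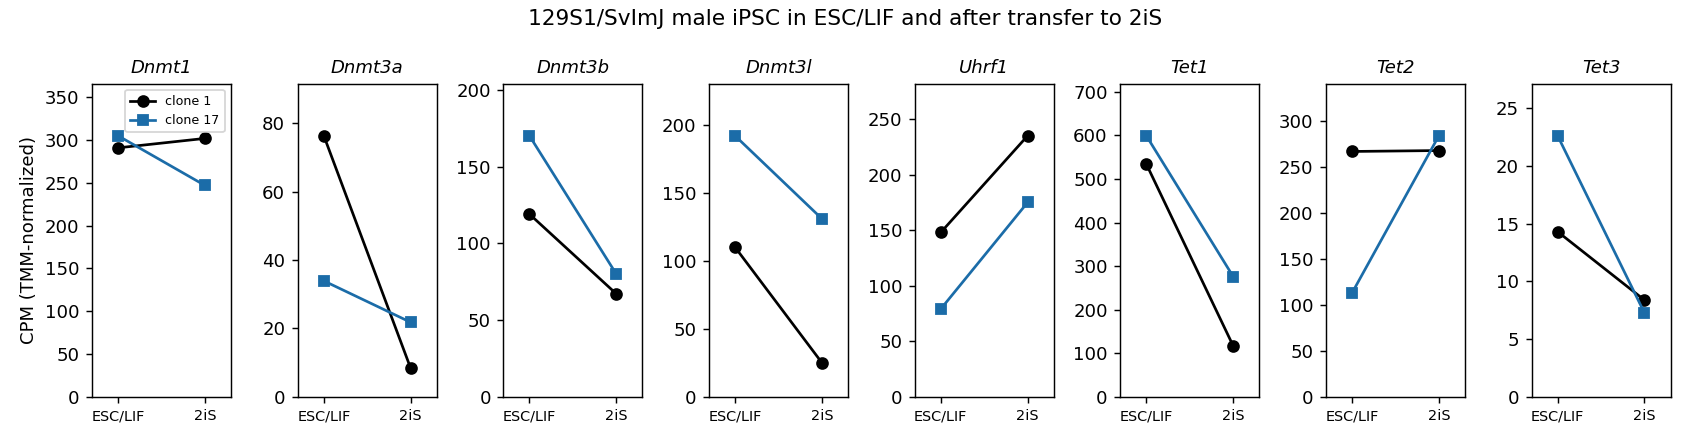
CPM (vertical axis, from 0) of the 8 genes in 129S1/SvImJ male iPSC clones 1 and 17 in ESC/LIF and after transfer to 2iS. Lines join the 2 libraries of a clone. Tet1 goes from 534 to 117 CPM in clone 1 and from 599 to 276 in clone 17.

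Sex and strain were compared among the same 12 iPSC. Between females and males of WSB/EiJ and 129S1/SvImJ, 0 of 7 members passed in edgeR or DESeq2, beside 1.68% of all tested genes, and Dnmt3b alone had an unadjusted p under 0.05. In WSB/EiJ, Dnmt3b was at 29.7 and 58.7 CPM in the females and 108 and 157 in the males. In 129S1/SvImJ in ESC/LIF, it was at 60.3 and 131 CPM in the females and 119 and 170 in the males. The sexes were apart in WSB/EiJ and overlapped in 129S1/SvImJ. The log2 fold change of female to male was -0.97 (SE 0.35, adjusted p = 0.198). The difference of the sex effect between the strains passed for 0 of 7 members in either tool, beside 0.118% of all tested genes, and 2 had an unadjusted p under 0.05. These were Uhrf1 (-1.55, SE 0.58, adjusted p = 0.46) and Dnmt3l (-1.47, SE 0.67, adjusted p = 0.728).

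Between WSB/EiJ and 129S1/SvImJ males in 2iS, 0 of 7 members passed in edgeR or DESeq2, beside 5.05% of tested genes, and none had an unadjusted p under 0.05. Dnmt3b had the largest difference, with 108 and 157 CPM in WSB/EiJ against 67.1 and 80 in 129S1/SvImJ (0.82, SE 0.48, adjusted p = 0.405). Between NOD/ShiLtJ and WSB/EiJ females in 2iS, 0 of 7 passed in edgeR or DESeq2, beside 3.98%, and 2 had an unadjusted p under 0.05. Tet1 was at 288 and 340 CPM in NOD/ShiLtJ and at 109 and 151 in WSB/EiJ. The groups did not overlap, and the log2 fold change was 1.15 (SE 0.36, adjusted p = 0.0674). It passed with no filter on low counts (1.31, adjusted p = 0.0301), among genes without opposite-strand exons (1.21, 0.0364), and without either 129S1/SvImJ male clone in 2iS (adjusted p = 0.044 without clone 1 and 0.0451 without clone 17). Uhrf1 was at 227 and 229 CPM against 59.3 and 143 (1.02, SE 0.41, adjusted p = 0.197).

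The NOD/ShiLtJ male iPSC are described apart, since 5.59% to 5.62% of their aligned pairs fell on genes, against 1.15% to 1.74% in the other libraries. Against the NOD/ShiLtJ females, 3 of 7 members passed, all higher, beside 38.9% of 4457 tested genes in either direction and 14.4% higher. Dnmt1 was at 534 CPM in clone 3 and 597 in clone 35, against 233 and 235 in the females (1.16, SE 0.25, adjusted p = 0.00045). Uhrf1 was at 422 and 476 CPM against 227 and 229 (0.86, SE 0.29, adjusted p = 0.0199). Tet2 was at 306 and 358 CPM against 133 and 217 (0.81, SE 0.31, adjusted p = 0.0355). These 3 of 7 did not overlap between the sexes, beside 43.5% of all tested genes in which both males were above both females, so the members were near the background. Over all tested genes the median log2 fold change was 0.18. Dnmt3l had 113 and 228 CPM in the males and 99 and 211 in the females, and Tet1 331 and 405 against 288 and 340, so both overlapped.

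How the libraries are scaled moves these values more than in any other comparison. With uniquely aligned pairs in place of gene counts as the base of CPM, Dnmt1 was at 38.2 and 44.1 in the males and 3.23 and 3.52 in the females, and Dnmt3l at 8.12 and 16.9 against 1.36 and 3.18. With that scale all 7 members passed, with log2 fold changes from 2.44 (Dnmt3l) to 3.6 (Dnmt1). So did 3527 genes in all, against 1735 of 4457 tested with gene counts as the base, so these calls are not particular to the members. With DESeq2 Dnmt1 alone passed. Tet2 also lost its call with DESeq2's size factors (0.72, adjusted p = 0.0652) and with no filter on low counts (0.81, adjusted p = 0.0649), and Uhrf1 among genes without opposite-strand exons (0.51, adjusted p = 0.262). Without female clone 7 Uhrf1 (adjusted p = 0.0945) and Tet2 (0.344) lost theirs, and likewise without male clone 35 (0.0822 and 0.141). Without female clone 52 Uhrf1 lost its call (0.0654). Tet2 lost its own without WSB/EiJ female clone 23 (0.0526) or 129S1/SvImJ male clone 1 (0.0503) or 17 (0.051) in 2iS. For Dnmt3b, at 219 and 109 CPM in the males and 133 and 49.5 in the females, the value was 0.72 (SE 0.39, adjusted p = 0.148), and it passed without male clone 35 (1.08, adjusted p = 0.0341) or female clone 7 (1.61, 0.0307). The part of the different share of pairs on genes in these results was not tested. Fibroblast markers summed to 2930 to 4150 CPM in the males and 885 to 1010 in the females, of which Fn1 alone, fibronectin, was 2810 to 3980 and 842 to 982. The other 16 summed to 116 to 173 and 33.3 to 43.3 CPM, and 9 of the 17 had no count in either male and 12 in either female.

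**Figure D5:**
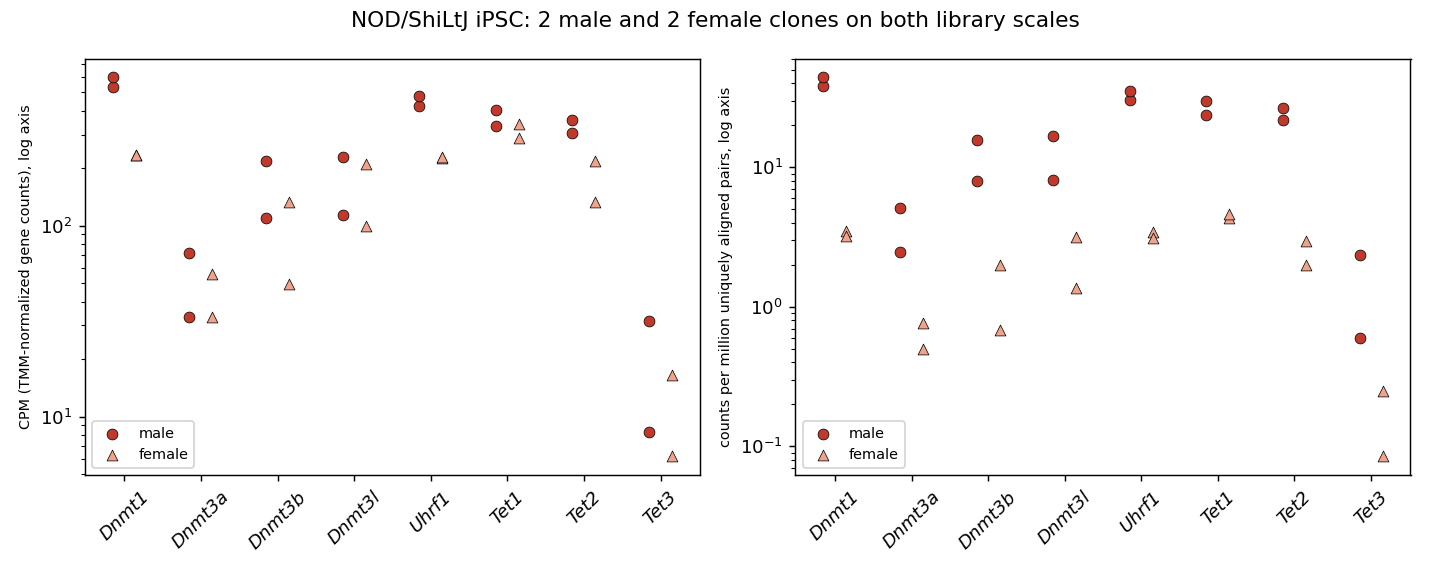
Level of the 8 genes in 2 male and 2 female NOD/ShiLtJ iPSC clones on log axes, in CPM of gene counts (left) and of uniquely aligned pairs (right). Dnmt1 is at 534 and 597 CPM in the males against 233 and 235 in the females, and the gap widens to 38.2 and 44.1 against 3.23 and 3.52 on the right.

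Other genes of the methylation pathway were read from lists, between iPSC and EpiSC unless said otherwise, where the median log2 fold change of all tested genes was 0.1. Of the partners and readers of methylation, 16 of 26 measured genes were tested, 3 rose and 1 fell, with a median of 0.35. These 4 calls in 16 genes stand beside 28.3% of all tested genes, so the list was near the background. Those that rose were Zfp57 (1.73, SE 0.35, adjusted p = 0.000964), which guards methylation at imprinted regions, its corepressor Trim28 (0.88, SE 0.31, adjusted p = 0.0383), and Usp7 (1.28, SE 0.3, adjusted p = 0.00294), a deubiquitinase that binds Dnmt1 and Uhrf1. Kdm1b, a histone demethylase needed for imprints in oocytes, fell (-0.79, SE 0.15, adjusted p = 0.000702). Its level was 5250 to 5260 CPM in EpiSC, where Trim28 was at 267 to 287. Kdm1b was at 2610 to 3960 CPM in iPSC other than NOD/ShiLtJ males and 2590 to 2860 in ESC. Between NOD/ShiLtJ male and female iPSC it changed by -3.02 (SE 0.2, adjusted p = 1.64e-12). Whether reads from the opposite strand enter the counts of Kdm1b was not tested. In ESC against EpiSC, Zfp57 (1.77, adjusted p = 0.00441), Usp7 (1.16, adjusted p = 0.025) and the histone methyltransferase Nsd1 (1.16, adjusted p = 0.0424) rose and Kdm1b fell (-0.91, adjusted p = 0.00332). Between iPSC and ESC 0 of these 16 passed.

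Of the genes of demethylation and base repair, 8 of 23 were tested. Parp1, which senses DNA breaks, rose (1.73, SE 0.3, adjusted p = 0.000202) and 0 fell, with a median of -0.16. So 1 of 8 passed, beside 28.3% of all tested genes. Of the methyl donor cycle, 11 of 16 were tested, 3 rose and 0 fell, with a median of 0.73. These 3 calls in 11 genes stand beside the same 28.3%, so this list was near the background. Tdh, the threonine dehydrogenase that feeds one-carbon units in mouse ESC, had 0 counts in EpiSC and 319 in iPSC, at least 20.7-fold higher when EpiSC are set at 3 counts over the group (adjusted p = 8.11e-07). Mtr, methionine synthase, had 2 and 80 counts, a ratio of 7.8 (95% exact interval 2.09 to 65.5) (adjusted p = 0.0272). The other was Gldc (2.51, SE 0.65, adjusted p = 0.00651) of the glycine cleavage system. Of 20 germline genes whose promoters methylation is known to silence, only 2 were tested, and Rpl10l rose (adjusted p = 0.017). It had 0 counts in EpiSC and 67 in iPSC, at least 4.35-fold higher on the same floor. Sycp1 did not pass there (1.78, SE 1.51, adjusted p = 0.398), and fell between ESC/LIF and 2iS in the 129S1/SvImJ males (-1.93, SE 0.47, adjusted p = 0.0131).

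All 11 naive markers tested rose in iPSC over EpiSC, with a median of 6.21, or 4.8 with the 6 genes that had no count in EpiSC set at their bound. Zfp42 was at least 47-fold higher (adjusted p = 9.44e-08), Dppa5a at least 45.7-fold (adjusted p = 5.79e-08), and Klf4, which the reprogramming virus also carries, at least 29.7-fold (adjusted p = 4.08e-06). Both primed markers tested fell, Krt18 (-2.26, SE 0.84, adjusted p = 0.049) and Zic5 (-2.23, SE 0.71, adjusted p = 0.0231). Krt18 was at 10.3 and 175 CPM in the 2 EpiSC and at 0 to 69.2 in the 12 iPSC, so 1 EpiSC lay within their range. Zic5 was at 77.1 and 84 CPM in EpiSC, 0 to 52.4 in the 12 iPSC and 24.7 to 155 in ESC. It thus did not set ESC apart from EpiSC. Of 7 fibroblast markers tested, 4 fell, with a median of -2.37. Tnc and Col12a1 had 0 counts in all 12 iPSC and were at least 23.9-fold (adjusted p = 0.00401) and 12-fold lower (adjusted p = 0.0156). In the 2 EpiSC, Tnc was at 5.14 and 91 CPM and Col12a1 at 0 and 49, so each fall rested mostly on 1 line. Vim fell by 2.5 on the log2 scale (SE 0.53, adjusted p = 0.00131). Dppa3, which keeps Uhrf1 from DNA, and Prdm14, a repressor of the de novo genes, were too low to test. Dppa3 had 16 counts in all 12 iPSC, 3 in ESC and 0 in EpiSC, and Prdm14 had 12, 10 and 0.

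Across the 17 libraries, the genes whose log2 CPM followed a member most closely, of 3986, are given as a description, since the libraries share depth, strain and state. For Tet2 these were Parp1 (Pearson r = 0.94), Klf4 (0.93) and Tbx3 (0.93). For Dnmt3l they were Gal3st3 (0.92), Sept1 (0.91) and Trim25 (0.9), and for Tet1 Safb2 (0.91), Kat6b (0.88) and Chchd10 (0.87). The closest to Dnmt1 was Rcc2 (0.84), to Dnmt3a Mphosph8 (0.82), to Dnmt3b Fam132b (0.82) and to Uhrf1 Paxbp1 (0.79). Among members, Dnmt3l and Tet1 were closest, with r = 0.78 over the 17 libraries and 0.65 over the 12 iPSC. Dnmt3l and Tet2 had 0.67 over the 17 libraries and -0.46 over the 12 iPSC, so their likeness was not seen among the iPSC alone. Both genes were lowest in the EpiSC. Among the ESC, the 129S1/SvImJ line had the least Dnmt3l (68 CPM) and the most Tet2 (167 CPM).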

How the data were processed

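The 19 libraries, made with a TruSeq Stranded mRNA kit, held 1 clone in 1 medium or 1 line each. The authors trimmed read pairs with Trimmomatic, aligned them to GRCm38 with TopHat2 2.1.1 and counted them per gene with HTSeq in intersection-nonempty mode, and the deposited values are raw counts of genes by symbol. The strand setting of HTSeq is not given in the sources used here.

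The tests on counts used edgeR 4.0.16 under R 4.3.3 (TMM, filterByExpr with a minimum count of 10, glmQLFit and glmQLFTest), adjusted over all tested genes. Cell states were fitted over 17 libraries, the 12 iPSC other than NOD/ShiLtJ males over 6 conditions, and all 14 iPSC for those males. DESeq2 1.42.0, the test the study names, was an alternative. Others were DESeq2's size factors, no filter, uniquely aligned pairs as library size, genes without opposite-strand exons, strain as covariate, males only, 2iS only, without the WSB/EiJ ESC, conditions from source names, the clone as a block, and leaving out each library of a fit. Log2 CPM used a prior count of 2. Models were tested on simulated data. Positions come from GENCODE M21, matched for 98.6% of genes, and promoters from RefSeq.

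The members and gene lists were chosen with earlier results of these data known. Named are all members in each comparison, and per list up to 3 called genes with the largest change in each direction between iPSC and EpiSC, with Dppa3 and Prdm14. The list genes named between media were chosen after their values were seen. Clones 1 and 17 are the same clones in both media, so the numbers pair these libraries. The deviations of clone 1 from the mean of each medium had a correlation of 0.06 over 3986 genes. Clones are separate colonies from pooled fibroblasts and each ESC or EpiSC is 1 line, so p-values measure the spread between clones or lines. Clones of pooled fibroblasts do not give the spread between animals. In the fit of cell states, the spread also holds differences of strain within a state, and of sex and medium among the iPSC. The 12 iPSC libraries hold 10 clones, so the p-values of the cell states treat 2 repeated clones as separate. A fit with 1 library per clone was added after the data were seen.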

Additional observations from a re-analysis of the deposited data

Results flagged for a closer look

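Among the 6 iPSC libraries of 129S1/SvImJ, Dnmt3l stood apart in clone 1 in 2iS, with 25.1 CPM on 3 counts, and the other 5 had 110 to 221 CPM. Among the 4 WSB/EiJ iPSC, Dnmt1 was far below the rest in female clone 23, at 158 CPM on 16 counts, where the others had 276 CPM or more. Chance sets an end value this far off in about 1 in 20 groups, and 16 groups were looked at.

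For Dnmt3l the order of the sexes was opposite in the 2 strains. In WSB/EiJ both females (67.1 and 79.1 CPM) were below both males (118 and 163), and in 129S1/SvImJ in ESC/LIF both females (196 and 221) were above both males (110 and 192). The nearest 2 values in 129S1/SvImJ, 196 and 192 CPM, rested on 36 and 17 counts, so they cannot be told apart. Every member was looked at for such an order, and the share of all genes that show it was not counted. The difference between the sex effects was -1.47 on the log2 scale (SE 0.67) and did not pass edgeR's test over all genes (adjusted p = 0.728). The strains also differ in medium here.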

How the results depend on the processing

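With 1 library of the fit left out (of the compared states only, for the comparisons of state), 708 values of the 7 tested members kept their direction where called and their side of the threshold, 14 lost it and 4 gained it. Under the other alternatives, 378 kept it, 20 lost it and 7 gained it. Of all 1131 values, 61 changed sign, none where either value passed the threshold.

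Members called moved from 5 to 2 in iPSC against EpiSC, from 3 to 1 in ESC against EpiSC, from 0 to 1 in NOD/ShiLtJ against WSB/EiJ females and from 3 to 1 in NOD/ShiLtJ males against females among genes without opposite-strand exons, a setting that drops Dnmt3a, Dnmt3l and Tet2 by construction. There the genes called were 387 in iPSC against EpiSC, 167 of 601 in ESC against EpiSC, 109 of 248 in iPSC against ESC, 62 of 139 between media, 17 of 57 by sex, 0 of 4 for sex by strain, 66 of 171 for WSB/EiJ against 129S1/SvImJ, 62 of 135 for NOD/ShiLtJ against WSB/EiJ and 314 of 1735 in NOD/ShiLtJ males. Under the source names' conditions, 10, 0 and 0 genes and no member passed in the 3 comparisons of state (0 members against EpiSC in either). With no filter on low counts, 1874 genes passed in iPSC against EpiSC, 600 in iPSC against ESC and 9 for sex by strain, and 1 member (Tet1) in NOD/ShiLtJ against WSB/EiJ. DESeq2 called 47 genes and 0 members between media, 15 genes by sex, 1 for sex by strain, 65 for WSB/EiJ against 129S1/SvImJ, 44 for NOD/ShiLtJ against WSB/EiJ, and 992 genes and 1 member in NOD/ShiLtJ males. Uniquely aligned pairs as library size gave 3527 genes and 7 members in NOD/ShiLtJ males. Without the WSB/EiJ ESC, 156 genes passed in iPSC against ESC. Apart from these constructions, the cause was not tested.

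With 1 library left out, genes called ran from 585 (without the 129 EpiSC) to 1130 in iPSC against EpiSC, and members from 3 to 5. They ran from 262 (without the 129 EpiSC; 370 without the 129S1/SvImJ ESC) to 595 in ESC against EpiSC, members 2 to 3. In iPSC against ESC they ran from 88 (without the NOD/ShiLtJ ESC; 133 without the 129S1/SvImJ and 156 without the WSB/EiJ ESC) to 246, and leaving an EpiSC out of that fit gave 308 or more. Between media they ran from 62 to 198, with 62 to 64 without clone 1 in either medium or clone 17 in 2iS, and members from 0 to 1. By sex they ran from 20 (without 129S1/SvImJ female clone 8) to 102 (without WSB/EiJ female clone 23), and for sex by strain from 3 to 10 (without WSB/EiJ female clone 28). For WSB/EiJ against 129S1/SvImJ they ran from 60 (without WSB/EiJ male clone 12) to 256, for NOD/ShiLtJ against WSB/EiJ from 75 (without NOD/ShiLtJ female clone 52) to 173, members 0 to 1, and for NOD/ShiLtJ males from 1216 to 1875, members 2 to 3. With an arm left at 1 library, that library is assumed to vary like the others.

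With the clone as a block between media, 102 genes passed among the 4 libraries (192 without the block) and 128 in the fit of 12 iPSC, a setting added after the data were seen, and Tet1 was at -1.48 and -1.5. The block changed no call of a member. With 1 library per clone, also added then, 1054 genes and 4 members passed in iPSC against EpiSC, Dnmt3b losing its call, and 0 members in iPSC against ESC. Depth limits Tet3 and Dnmt3a most, with 30 and 69 counts in 12 iPSC.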
